A study of Mus musculus with 2 samples.

Results

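The Ikaros family of zinc finger transcription factors was described from its exon structure: Ikzf1 (Ikaros), Ikzf2 (Helios), Ikzf3 (Aiolos), Ikzf4 (Eos) and Ikzf5 (Pegasus). Its 5 members were taken by symbol from the gene annotation of the series, leaving out the added viral and reporter models, and make up 5 of 27998 mouse genes and 34 transcripts. The series itself held 1 library from cochleae given the control virus Anc80-GFP and 1 from cochleae given Anc80-Ikzf2. Both came from postnatal day 8 mice of the strain Myo15-Cre;Ai14, in which Cre driven from the Myo15 gene switches on tdTomato in hair cells, and sorted tdTomato cells were captured on a droplet platform that reads 3' ends. The labels do not say how many animals were pooled. The annotation carries no measurement of either library, so expression, depth and the labelled cell type were not analysed here. Gene models have no sampling error, and the values below are counts and lengths with no test. All positions are on mouse assembly GRCm38.

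Ikaros family proteins bind DNA through a cluster of C2H2 zinc fingers near the amino end, and pair with each other through a second, smaller cluster at the carboxyl end. In lymphocytes, splicing that removes amino-terminal fingers yields forms that still pair but bind DNA poorly. Helios acts in regulatory T cells and in outer hair cells, the electromotile sensory cells of the cochlea. A coding exon whose length is a multiple of 3 can be left out without changing the reading frame downstream. The phase of an intron says where it cuts a codon: an intron of phase 1 follows the first base of a codon, phase 2 follows the second base, and phase 0 lies between codons.

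The exon shared by 4 members is shown first, because both of its edges and its length recur. In Ikzf1, Ikzf2, Ikzf3 and Ikzf4 a coding exon of 168 bases, or 56 codons, holds fingers 2 and 3. It lies at chr11:11754007-11754174 in Ikzf1, chr1:69570493-69570660 in Ikzf2, chr11:98488852-98489019 in Ikzf3 and chr10:128640141-128640308 in Ikzf4. Exons of this length made up 4 of the 27 distinct internal coding exons of the family, against 0.477% of those of all protein-coding genes. The length was singled out because the 4 members share it. The following 30-base stretches, on the coding strand, join the last 15 bases of the exon before it to its own first 15 bases, with the codon cut by the intron in capitals.
Ikzf1-201: aaagaagtcatactGGTgaacggcctttcc
Ikzf2-001: aaaggagtcacactGGTgagcggcccttcc
Ikzf3-001: agcgaagccataccGGCgaacgcccgttcc
Ikzf4-001: agcgcagccacactGGGgagaggcccttcc
The cut codon is GGT, GGT, GGC and GGG in that order, and each of these encodes glycine, a residue of the short linker that commonly joins C2H2 fingers. The exon before it ends at 11748571 in Ikzf1, and at 69577781, 98490332 and 128641053 in Ikzf2, Ikzf3 and Ikzf4, which lie on the minus strand.

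The far edge of the same exon cuts a codon in the same way, again after its first base. These stretches join the last 15 bases of the 168-base exon to the first 15 bases of the next one.
Ikzf1-201: tgaggacgcactccGTTggtaagcctcaca
Ikzf2-001: tcaggacccattctGTGggtaaacctcaca
Ikzf3-001: ttaggacacattctGTGgagaagccgtaca
Ikzf4-001: tccgcacacactcaGTCtcctcccccaccg
All 4 cut codons here encode valine. The next exon had 123 bases in Ikzf1, 138 in Ikzf2, 117 in Ikzf3 and 150 in Ikzf4, so its length varied while the 168-base exon did not.

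Base by base, the 168-base exon was 73.2% to 82.1% identical between members over the 6 pairs. Ikzf1 and Ikzf4 matched at 138 of 168 bases. Identity was 94.6% to 98.2% at the second base of codons and 33.9% to 55.4% at the last, the position where many changes leave the amino acid as it is. Ikzf3 stood lowest at last bases, at 33.9% against both Ikzf2 and Ikzf4.

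The family had 23 protein-coding isoforms, of which 17 were complete, with an annotated start and stop codon. Ikzf2 had 7, Ikzf1 and Ikzf5 had 6 each, Ikzf4 had 3 and Ikzf3 had 1. Having 6 or more such isoforms, as 3 of the 5 members did, applied to 6.98% of all protein-coding genes, whose median was 2. The cutoff of 6 was not part of the planned design and equals the counts of Ikzf1 and Ikzf5. Of the complete isoforms Ikzf2 had 6, Ikzf1 had 4, Ikzf4 and Ikzf5 had 3 each and Ikzf3 had 1. With complete isoforms only, 1 of the 5 members had 6 or more. The share of all genes was not counted for complete isoforms, so the 6.98% is not its counterpart. The 6 incomplete isoforms all lacked a stop codon. Transcripts without a start or a stop codon made up 23.3% of all protein-coding transcripts, so 6 of 23 is near the general level. Another 11 family transcripts were of other biotypes: 4 were marked for nonsense-mediated decay, all of them from Ikzf4, 4 retained an intron and 3 were processed transcripts, and none of these 7 had a coding sequence.

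For each member, the longest isoform with a CCDS number (a coding sequence agreed on by the main annotation groups) served as its reference. Ikzf1-201 coded for 515 amino acids in 7 coding exons, and Ikzf2-001 for 526 in 7. Ikzf3-001 coded for 507 amino acids and Ikzf4-001 for 586, each in 8 coding exons. Ikzf3-001, the only protein-coding Ikzf3 isoform, had support level 5, for which no single transcript supports the whole model. Ikzf5-001, for 419 amino acids, had only 3 coding exons. Its transcript had 4 exons, whereas each of the other references had 8.

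Coding lengths with the stop codon ranged over 6.36-fold among complete isoforms, from 324 bases in Ikzf5-005 to 2061 bases in Ikzf4-002. Within Ikzf1 they were 597, 1287, 1548 and 1608 bases, and within Ikzf2 they were 1146, 1359, 1365, 1503, 1581 and 1599 bases. Ikzf4 gave 1602, 1761 and 2061 bases, Ikzf5 gave 324, 801 and 1260, and the single Ikzf3 isoform had 1524. The longest forms of Ikzf1, Ikzf2 and Ikzf3 lay close together, while every Ikzf5 form was shorter than every Ikzf4 form.

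**Figure D1:**
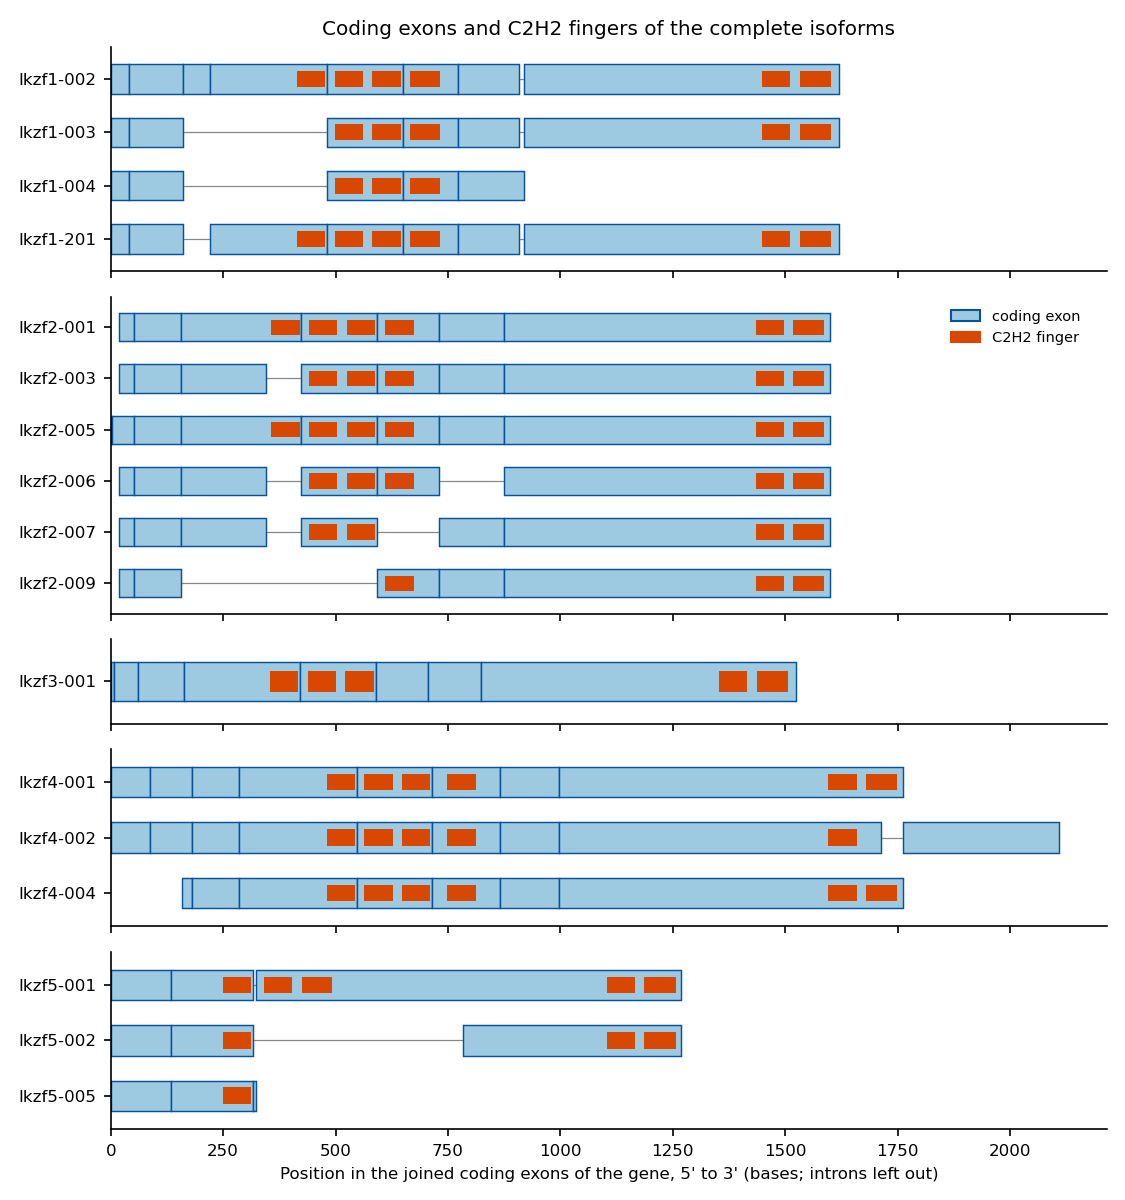
Coding exons (blue blocks) and C2H2 fingers (orange) of the 17 complete isoforms, one row each, along the joined coding exons of the gene in bases with introns left out; thin lines mark coding exons or parts that an isoform lacks. The 168-base exon carries 2 fingers in every isoform of Ikzf1 to Ikzf4 shown except Ikzf2-009, which lacks it, and Ikzf5 carries its fingers in other exons.

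The coding introns of the family were almost all in phase 1. Over distinct introns between coding parts, 37 of 40 (92.5%) had phase 1, against 32.8% over all protein-coding genes. All 9 such introns of Ikzf1 had it, as did all 7 of Ikzf3 and all 5 of Ikzf5. In Ikzf2 the count was 10 of 11 and in Ikzf4 it was 6 of 8. Among complete isoforms with 5 or more coding introns, 9 of 12 in the family had phase 1 throughout, against 1.08% over all genes. Introns are inherited together within a gene and isoforms of 1 gene share them, so these counts are not independent observations.

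Exons flanked by introns of 1 phase have lengths that are multiples of 3, and this held for 24 of the 27 distinct internal coding exons (88.9%), against 40.9% over all protein-coding genes. All 6 internal coding exons of Ikzf1, all 6 of Ikzf3 and the 1 of Ikzf5 were multiples of 3, whereas Ikzf2 had 6 of 7 and Ikzf4 had 5 of 7. Of genes with 5 or more internal coding exons, 1.36% had multiples of 3 only. Ikzf1 and Ikzf3 were among them, while Ikzf2 and Ikzf4 were not.

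The 3 exceptions lay at the ends of the coding sequence. In Ikzf2-005 a start codon of 3 bases fills the first coding part, and the exon after it, of 49 bases, is coding throughout. The other 6 Ikzf2 isoforms use a start codon inside that exon, with 34 coding bases. Ikzf4 had the same arrangement with an exon of 94 bases, which is coding throughout in Ikzf4-001 and Ikzf4-002 behind a first part of 87 bases. Ikzf4-004 starts inside that exon, with 22 coding bases. The intron before these exons had phase 0 in both genes. The remaining exception was a 715-base piece of the last exon of Ikzf4 that Ikzf4-002 splices onward with phase 2.

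**Figure D2:**
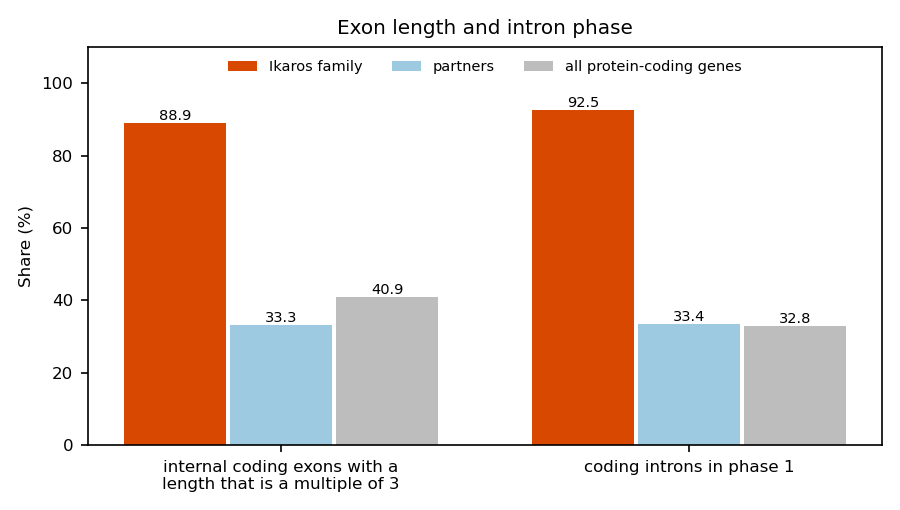
Bars give the share, in percent, of internal coding exons with a length that is a multiple of 3 (left) and of coding introns in phase 1 (right) for the 5 Ikaros family genes, 17 fixed partner genes and all protein-coding genes. The family stands at 88.9% and 92.5%, above both other groups in each.

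From the reference lengths, the same order of exons could be followed through Ikzf1 to Ikzf4, except at the start of the coding sequence. Ahead of the 168-base exon stood an exon of 261 bases in Ikzf1 and Ikzf4, 267 in Ikzf2 and 258 in Ikzf3, which encodes finger 1. Ahead of that stood one of 120, 105, 102 and 105 bases in Ikzf1, Ikzf2, Ikzf3 and Ikzf4, with no finger. In the protein alignment described below, its edges fell in the same columns only in Ikzf2 and Ikzf4. In Ikzf1 and Ikzf3 it was placed by order and rough length. The coding parts before it differed: 40 bases in Ikzf1, 34 in Ikzf2, 7 and 54 in Ikzf3, and 87 and 94 in Ikzf4. The exon just before the last had 135, 144, 117 and 132 bases. The last coding part, with the stop codon, had 701 bases in Ikzf1 and Ikzf3, 725 in Ikzf2 and 764 in Ikzf4. Differences between members in these exons were again whole codons.

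Ikzf5 did not follow this order. It had coding parts of 133, 183 and 944 bases, and its last coding part alone held 4 of its 5 fingers. The introns of all references differed in length far more than the exons: the longest was 105162 bases in Ikzf2, 40406 in Ikzf1, 27015 in Ikzf3, 13535 in Ikzf5 and 3350 in Ikzf4.

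When the 5 reference proteins, translated from the coding sequence, were aligned, 2 exon boundaries fell in the same column with the same phase in Ikzf1, Ikzf2, Ikzf3 and Ikzf4. These were the entry to the 168-base exon and the entry to the last coding exon. The exit of the 168-base exon coincided in Ikzf1, Ikzf2 and Ikzf3. In Ikzf4 it fell in another column beside an alignment gap, although the exon has the same length there. Summed over the 10 pairs of members, 17 boundaries were shared, 4 of them between Ikzf2 and Ikzf4, which also share the boundaries before and after their 105-base exon. In this alignment Ikzf5 shared no boundary with any member.

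Residue identity over aligned positions was highest between Ikzf2 and Ikzf4, at 57.0%, and 47.7% to 56.2% for the other pairs among Ikzf1 to Ikzf4. Pairs with Ikzf5 ranged from 26.0% to 31.9%. Along Ikzf2-001, identity peaked in the 168-base exon, where 55 of 56 residues matched Ikzf4, 52 matched Ikzf1 and 50 matched Ikzf3. Ikzf5, as aligned here, matched at 17. In the exon of 105 bases before finger 1, identity was 37.1% with Ikzf4, 17.1% with Ikzf1 and 14.3% with Ikzf3. The 144-base exon, which holds no finger, stood at 40.0% to 43.8% for Ikzf1, Ikzf3 and Ikzf4.

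**Figure D3:**
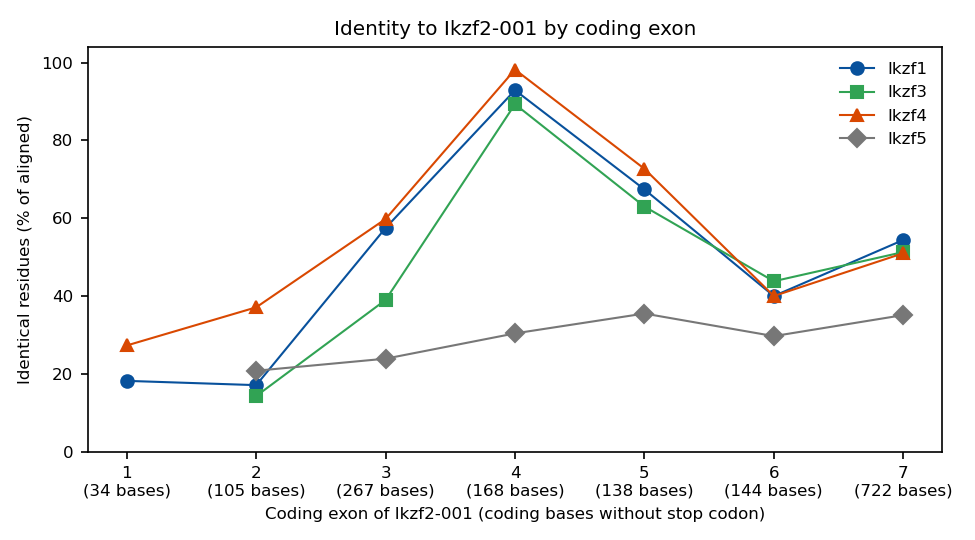
Percent of aligned residues identical to Ikzf2-001 (vertical axis) for each of its 7 coding exons (horizontal axis, with coding bases) in Ikzf1, Ikzf3, Ikzf4 and Ikzf5; points resting on fewer than 10 aligned residues are left out. Ikzf1, Ikzf3 and Ikzf4 peak at coding exon 4, the 168-base exon, at 89.3% to 98.2%, and Ikzf5 shows no such peak, with 30.4% there.

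The fingers were located with the pattern of 2 cysteines 2 to 4 residues apart, 12 residues, and 2 histidines 3 to 5 residues apart. Ikzf1-201, Ikzf2-001 and Ikzf4-001 each had 6, with 4 near the amino end and 2 in the last coding exon. All 28 fingers of the 5 references lay within a single coding exon, so no intron cut a finger. Neighbouring fingers of a cluster started 28 residues apart, except that 33 residues separated fingers 3 and 4 of Ikzf4-001. At this spacing 2 fingers take up the 56 codons of the 168-base exon.

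Ikzf3-001 had 5 fingers by this pattern, with 3 near the amino end. When the last histidine could also be a cysteine, a 6th finger appeared in it, starting at residue 203, where Ikzf1-201 also has finger 4. No other reference gained one. Ikzf5-001 had 3 fingers near the amino end, starting at residues 84, 112 and 140, and 2 at the carboxyl end. Its second coding intron, between parts of 183 and 944 bases, lay between fingers 1 and 2, and its exon edge reads as follows, with the cut codon in capitals.
Ikzf5-001: tcaggatccacacaGGCgagaagcctcaca
This cut codon, GGC, also encodes glycine. In the alignment, however, the boundary lay at column 239, inside the stretch set against the 168-base exon of the others, whose entry is at column 211. Counted by finger, that entry also lies between fingers 1 and 2, in phase 1. The columns depend on how the fingers of Ikzf5 were set against those of the other members. Which fingers correspond was not tested.

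Internal coding exons that another protein-coding isoform skips were found in 2 of the 5 members, Ikzf1 and Ikzf2, against 25.3% of all genes with an internal coding exon. There were 7 by start and end, 2 in Ikzf1 and 5 in Ikzf2, and 2 of the latter are forms of the same exon. All 7 were multiples of 3, where the share over all skipped coding exons was 61.3%. Among all internal coding exons this held for 6 of 6 in Ikzf1 and 6 of 7 in Ikzf2, so it does not set the skipped ones apart. Without isoforms of support level 5, 1 remained in Ikzf1 and none in Ikzf2.

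Ikzf1 skipping touches finger 1. Ikzf1-003, a CCDS isoform of support level 1, leaves out the 261-base exon at chr11:11748311-11748571 and codes for 428 amino acids with 5 fingers. The same exon is missing from Ikzf1-004 and from the incomplete Ikzf1-001. Ikzf1-002, of support level 5, alone carries a further exon of 60 bases (20 codons, chr11:11740950-11741009) that holds no finger and raises the protein to 535 amino acids. The new joint of Ikzf1-003 restores the codon at the entry of the 168-base exon.
Ikzf1-003: gtgatcgaggcatgGGTgaacggcctttcc
Its cut codon, GGT, is that of Ikzf1-201, because the 120-base exon before it ends in the same base as the exon left out.

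Ikzf1-004 ends early by another route. It reads past the end of the 135-base exon at 11761353 and meets a stop codon after 8 more bases. The stretch below shows its last 15 bases within that exon, the 8 bases beyond and the stop codon in capitals.
Ikzf1-004: ctcagaaatttcttggtaagagtTAA
The protein has 198 amino acids and 3 fingers, all near the amino end, and lacks finger 1 and both carboxyl fingers. Its support level was 1.

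Ikzf2 had the most varied set. Its fingers 1 to 4 are encoded in order by the 267-base exon (1 finger), the 168-base exon (2) and the 138-base exon (1), and each was shortened or left out in at least 1 isoform. Ikzf2-003, Ikzf2-006 and Ikzf2-007 end the 267-base exon 78 bases early, at 189 bases, and thereby lose finger 1 in the frame of Ikzf2-001. Ikzf2-006 also lacks the 144-base exon (chr1:69542227-69542370), which holds no finger. Ikzf2-007 lacks the 138-base exon (chr1:69548599-69548736) with finger 4. Ikzf2-009 lacks 435 coding bases, the 267-base and 168-base exons together, and with them fingers 1 to 3.

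The 4 new joints show how each keeps the frame, with the cut codon in capitals.
Ikzf2-003: tccggcttccgaatGGTgagcggcccttcc
Ikzf2-009: gtcacatgacaagcATGggtaaacctcaca
Ikzf2-007: tcaggacccattctGTAccgcctatggaag
Ikzf2-006: tcatgagtcaccatGGGgaaaagcttatgc
In each, 1 base comes from the exon before and 2 from the exon after. Ikzf2-003 keeps GGT, the codon that Ikzf2-001 has at this entry. In Ikzf2-009 the joint makes the codon ATG in place of the GTG that Ikzf2-001 has before its 138-base exon.

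The resulting proteins had 500 amino acids and 5 fingers in Ikzf2-003, 452 and 5 in Ikzf2-006, 454 and 4 in Ikzf2-007, and 381 and 3 in Ikzf2-009. Ikzf2-005, with the earlier start codon, added 18 coding bases and kept all 6 fingers in 532 amino acids. All 5 of these isoforms had support level 5, and only Ikzf2-001, of the complete Ikzf2 isoforms, had level 1. Both carboxyl fingers remained in every complete Ikzf2 isoform.

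Over the family, with the references counted, 14 of the 17 complete isoforms reached the stop codon of their reference, and 15 used its start codon. Every coding base that an isoform shared with its reference was read in the same frame, in 23 of 23 isoforms. These include the 5 references themselves, for which it holds by definition, and the share over all genes was not counted. The finger count equalled that of the reference in 8 of the 17 complete isoforms, the 5 references included. By finger count, 6 isoforms had 6 fingers, 6 had 5, 1 had 4, 3 had 3 and 1 had 1.

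**Figure D4:**
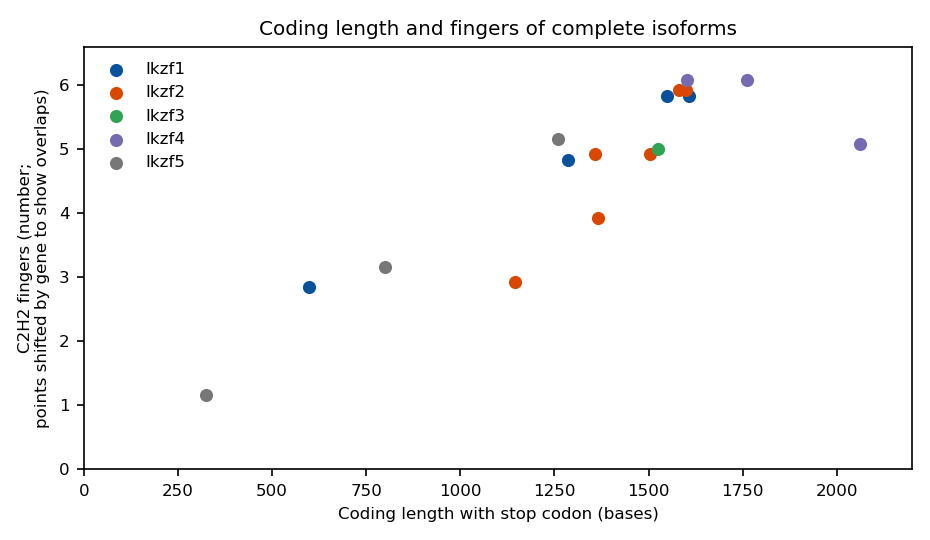
Each point is 1 of the 17 complete isoforms, placed by coding length with stop codon in bases (horizontal) and number of C2H2 fingers (vertical, shifted slightly by gene so that points do not hide each other). Ikzf5-005, with 324 bases, has 1 finger, and Ikzf4-002 is the longest at 2061 bases with 5.

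Ikzf4 and Ikzf5 varied mainly at their ends. Ikzf4-002 removes 49 coding bases from the last coding exon and reads on into 349 bases that Ikzf4-001 does not translate, which gives 686 amino acids and leaves out finger 6. Its joint, shown because it is the one coding joint of phase 2, takes 2 bases of the cut codon from the first side.
Ikzf4-002: tcacagccaggatCGGactcgccgtctcgt
Ikzf4-004 starts later and codes for 533 amino acids with 6 fingers. Among the Ikzf4 transcripts marked for decay, Ikzf4-003 inserts an exon of 72 bases and stops after 71 amino acids. Ikzf4-005 and Ikzf4-006 use a longer form, of 165 bases, of the 105-base exon, and Ikzf4-007 joins the first exon to the 105-base exon directly. In the latter 3 the 94-base exon, which is no multiple of 3, is left out.

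In Ikzf5-002 the last coding exon begins 459 bases later than in Ikzf5-001, in frame, which leaves 3 of the 5 fingers in 266 amino acids. The joint replaces the glycine codon GGC with GCA.
Ikzf5-002: tcaggatccacacaGCAggacagttgtcca
Ikzf5-005 ends in another last exon after 107 amino acids with 1 finger. Another 3 Ikzf5 isoforms lacked a stop codon.

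First exons that do not overlap numbered 11 over the protein-coding isoforms of the family. Ikzf2 had 4, Ikzf1, Ikzf4 and Ikzf5 had 2 each and Ikzf3 had 1, so 4 of 5 members had more than 1, against 31.9% of all protein-coding genes. The second one of Ikzf5, at 131410313 to 131410378, is carried only by Ikzf5-003, which lacks a stop codon. Among complete isoforms, only Ikzf2 and Ikzf4 had more than 1. When groups were instead made of transcript starts within 100 bases of each other, Ikzf1 had 4 and Ikzf5 had 1, and 3 of 5 members had more than 1. The share of all genes was not counted for joined starts or for complete isoforms, so the 31.9% is not the counterpart of either. In Ikzf1 the first group spans 11685003 to 11685197 and serves the incomplete Ikzf1-001 and Ikzf1-005, and the other spans 11685925 to 11686468 and serves the 4 complete isoforms. Both are joined to the same 54-base exon, in which translation starts, so both lead to the same start codon.

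The Ikzf2 first exons lay at 69687041 to 69687245 (Ikzf2-003), 69685694 to 69685886 (Ikzf2-001 and Ikzf2-005), 69685252 to 69685300 (Ikzf2-010) and 69684124 to 69684157. The last of these is where the models of Ikzf2-006, Ikzf2-007 and Ikzf2-009 begin at the start codon itself, so it does not show where such transcripts start. Without them the family count was 10. Apart from these 3 models, translation started in the first exon in Ikzf2-005, Ikzf3-001 and all 3 protein-coding Ikzf4 isoforms. In all protein-coding isoforms of Ikzf1 and Ikzf5 the first exon was untranslated.

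How far the skipped exons lie from the annotated transcript end, the part a 3' library samples, varied with the isoform model. In Ikzf2-001 the 144-base exon is followed by 8279 exonic bases, the 138-base exon by 8423, the 168-base exon by 8561 and the 267-base exon by 8729. The 261-base exon of Ikzf1-201 is followed by 4472. In the shorter models of Ikzf2 the distances were smaller: the 144-base exon is followed by 911 bases in Ikzf2-003 and by 725 in Ikzf2-007, whose model ends at the stop codon, and the 189-base exon of Ikzf2-003 by 1361. Where reads of the 2 libraries fall was not analysed here.

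The partner list, of 17 genes, held subunits of NuRD, the nucleosome remodelling and deacetylase complex that Ikaros proteins recruit, and other corepressors. All 17 were found. They had 258 internal coding exons, of which 86 (33.3%) were multiples of 3, and 96 of 287 coding introns (33.4%) had phase 1. Both shares were below those of the family. The share of multiples of 3 was also below the 40.9% of all protein-coding genes, and the phase 1 share was near their 32.8%. No partner had multiples of 3 only, which is rare in general: it held for 1.36% of all genes with 5 or more internal coding exons.

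By the fixed rule, 5 partners are named. Ctbp2, a corepressor gene, had the most protein-coding isoforms at 12, and Mta2, a NuRD subunit gene, and Hdac1, a histone deacetylase gene, the fewest at 1 each. Gatad2a, another NuRD subunit gene, had the highest share of multiples of 3 at 60.0%, while Ctbp1 and Ctbp2 had the lowest at 14.3%. A skipped coding exon was found in 5 of the 17 partners, with 7 such exons in all. This is near the 25.3% of all genes with an internal coding exon. The median number of protein-coding isoforms was 5 in the partners and 6 in the family.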

How the data were processed

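The only file analysed was a gene annotation (GTF) that the authors deposited, a table of the whole series with positions in bases and coding frames, and it holds 0 columns of per-sample values, so no library depth enters. Per the file headers it follows GRCm38 patch 4. Cell Ranger 2.0.2 is named, without a role, in the submitters' processing notes.

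Rows with the symbol of a member and a source other than CUSTOM were kept. A coding part joined coding and stop codon rows. Internal coding exons were coding throughout and neither first nor last. Comparisons used 21990 protein-coding genes with a coding transcript. Coding bases were taken by position from GENCODE M21 transcripts, also on GRCm38, in which 26 of 34 family transcripts had the same identifier, version and exons. No coding base was missing. A protein table named in the planned design was not used here, so fingers and boundaries come from translated coding sequence, aligned with MAFFT 7.526 (local pairs). The tools were Python 3.11.15 with SciPy 1.17.1, NumPy 2.4.6 and, for plots, Matplotlib 3.10.9. On simulated data, all 200 genes gave the right structure.

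Members, lists and rules were chosen with earlier results of these data known. The rule for named genes took all members and, from the partners, those with the most and fewest isoforms and the highest and lowest share of multiples of 3. The reference isoforms, the comparison of phases and 168-base exons with all genes and the residue identities were added after the data were examined.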

Additional observations from a re-analysis of the deposited data

How the results depend on the processing

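The settings chosen in advance kept every family count within 1.5 times its value: isoforms ranged from 17 (complete only) to 34 (any biotype), first exons from 11 to 14, skipped coding exons from 7 to 8, multiples of 3 from 88.5% to 94.7%, shared boundaries from 17 to 22 and fingers stayed at 28 with wider spacing. Requiring an annotated start codon removed no isoform, so the 11 first exons under that setting were fixed in advance. The models of M21 gave 23 isoforms and 7 skipped exons. As 26 of the 34 family transcripts are the same there, this is not an independent check. Of the alternatives chosen after seeing the data, leaving out isoforms of support level 5 lowered the skipped coding exons from 7 to 1, by its construction, since the 5 complete Ikzf2 isoforms other than Ikzf2-001 have that level, as has Ikzf1-002, the only isoform with the 60-base exon. Counting only complete isoforms lowered the partner total from 77 to 49, again by construction. The others gave 10 first exons, 19 shared boundaries and 29 fingers. For single members, 51 of 60 values stayed within 1.5 times. No paired analysis was possible because the 2 groups hold a single library each, without values per library here, and for the same reason no replicate could be left out. These counts describe annotated models, which grow with the transcripts that were known when the annotation was made, and say nothing of which isoforms the sorted cells contain.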
